A study of Rattus norvegicus with 24 samples.

Results

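Fos (ENSRNOG00000008015), Fosb (ENSRNOG00000046667) and Npas4 (ENSRNOG00000020009) are 3 immediate early genes, picked by name from the 26404 genes listed for each of 24 newborn rat cortices. Their levels by condition, litter and pup, and their correlation with each other, were known when they were picked, so these values are given as a description without a test. All 3 were among the 14348 genes that passed the minimum of 1 CPM (counts relative to the total counted in the library) in at least 4 pups. The pups were Sprague Dawley rats at postnatal day 0, with brains taken within 2 h of a spontaneous birth and RNA made from the right cerebral cortex. In the saline pump group, 12 pups came from 3 dams that had an iPRECIO infusion pump filled with saline implanted under the skin at embryonic day 18, under isoflurane, with a catheter in the jugular vein and buprenorphine for analgesia. In the spontaneous labor group, 12 pups came from 3 unhandled dams without surgery. Each dam gave 2 male and 2 female pups, so that 4 pups share a dam and the dam, not the pup, received the surgery. The comparison of conditions was made to see whether anesthesia and surgery before birth leave a trace in the newborn cortex. The paper also describes antibiotics for implanted dams, enrofloxacin at surgery and later a regimen in the drinking water, without saying which these dams had. Surgery, isoflurane, analgesia, antibiotic, pump and saline came together and cannot be told apart. In a piece of cortex, fewer cells with a transcript and less transcript per cell cannot be told apart either.

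Immediate early genes are transcribed within minutes of a stimulus, without new protein synthesis, and their mRNAs are short-lived. In neurons, calcium entry during firing and growth factor signalling induce them through factors such as CREB and SRF, which are already bound to DNA. The products of Fos and Fosb pair with Jun proteins to form the AP-1 transcription factor, in many cell types. Npas4 encodes a basic helix-loop-helix PAS factor that pairs with Arnt proteins, is largely restricted to neurons and is known for its response to synaptic activity.

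The 3 genes lie on the minus strand of Rnor_5.0, and none overlaps another listed gene. Fos spans 116249742 to 116252608 on chromosome 6, with 4 exon blocks of 1589 bases in all, and its nearest listed neighbor is 95310 bases away. Fosb spans 81481174 to 81487900 on chromosome 1, with 4 exon blocks of 3251 bases in all and a neighbor 6329 bases away. Npas4 also lies on chromosome 1, from 227192031 to 227196795, with 8 exon blocks of 2460 bases in all and a neighbor 14672 bases away. Since no other listed gene covers these exons, strand cannot have mixed their counts with those of a listed antisense gene.

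The promoters of Fosb and Npas4, but not of Fos, were matched in the RefSeq sequences used here (GRCr8), and the 250 bases before the start were searched on both strands for motifs of factors known to act on such genes. The cAMP response element TGACGTCA was in neither promoter, against 1.59% of 33469 promoters of the same length. Its shortened form TGACG, which is part of the full element, was in neither (18.2% of all promoters), nor was the AP-1 motif TGAGTCA (4.05%) or the CArG box, which SRF binds (1.497%). A TATAAA box was found in Fosb (12.9% of all promoters), on the strand opposite to the gene and from 180 to 175 bases before the start. The stretch around it is given in the direction of the gene, since it holds the single match, with the match in capitals, at chr1:88089347-88089376 of GRCr8 on the minus strand.
Fosb promoter: gccgtgaataatTTTATAgatatatacatt
These searches cover the listed letters in this window and say nothing of factor binding elsewhere.

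Between 12170547 and 19260066 reads were counted on genes in each pup, and the mean total of a litter from 13792747 to 16426189. TMM factors, which adjust for library composition, lay between 0.972 and 1.02. Within litters, the log2 total of a pup was correlated with the log2 CPM of the 3 genes at r = -0.29, -0.43 and -0.47 for Fos, Fosb and Npas4 (24 pups, as deviations from the litter mean), and over all pups at r = 0.05, -0.09 and -0.25. The part of depth in the values below was not tested. Gene names were in hand for 967 identifiers from a list that the study had selected on these same samples. Of 156 symbols in 17 lists of related genes and cell type markers, 11 could be paired with an identifier, and the neuron markers were not among them, so that the tissue could not be checked against neuronal genes here.

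Fos was the most abundant of the 3 genes. Per kilobase of exon, its level was 6.30 ± 3.24 RPKM (SD, n = 24 pups), against 1.23 ± 0.723 RPKM for Fosb and 1.19 ± 0.553 RPKM for Npas4. The ranges of Fosb (0.386 to 2.86 RPKM) and Npas4 (0.510 to 2.30 RPKM) overlapped over most of their length, and those neighbors in the order did not differ beyond their spread. All 3 genes were low for this tissue, as 34.8%, 9.74% and 9.42% of the tested genes had a lower mean RPKM than Fos, Fosb and Npas4, and the median gene had 11.6 RPKM. The counts behind these levels were 51 to 325 reads per pup for Fos, 18 to 130 for Fosb and 18 to 79 for Npas4. Counting error alone then gives a coefficient of variation of 5.55 to 14% for Fos, 8.77 to 23.6% for Fosb and 11.3 to 23.6% for Npas4.

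The litters of each condition spread widely. Saline pump litter 2 had the highest mean and spontaneous labor litter 1 the lowest mean of the 6 litters for each of the 3 genes, a pattern found in 5.71% of all tested genes and one of the values the genes were chosen on. Fos in saline pump litter 2 was at 14.3 and 17 CPM in the males and at 20.8 and 23.2 CPM in the females. The pups of spontaneous labor litter 1 were at 5.10 and 3.63 CPM in the males and at 3.83 and 4.06 CPM in the females. The lowest pup of the one litter stood well above the highest pup of the other, and the litter means differed 4.54-fold (18.8 against 4.15 CPM).

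The other litters lay between these. Saline pump litter 1 had Fos at 10.3 and 10.2 CPM in the males and at 12.4 and 11.4 CPM in the females, the smallest spread of the 6 as a ratio of highest to lowest. Saline pump litter 3 had 7.48 and 5.28 CPM in the males and 7.41 and 5.12 CPM in the females, a mean of 6.32 CPM that lay below 2 of the 3 litters without surgery. In spontaneous labor litter 2, Fos was at 9.26 and 5.98 CPM in the males and at 10.1 and 13.2 CPM in the females. Males of spontaneous labor litter 3 were at 12.9 and 10.8 CPM and its females at 8.50 and 7.74 CPM. These last 2 litters, with means of 9.62 and 9.98 CPM, lay in the range of the saline pump pups.

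Fosb, the close relative of Fos, set the 6 litters in the same order by mean and spread further between its extremes. Its values in saline pump litter 2 were 6.67 and 7.89 CPM in the males and 9.0 and 9.30 CPM in the females. Spontaneous labor litter 1 had 1.31 and 1.28 CPM in the males and 1.25 and 1.49 CPM in the females. This lowest litter also had the smallest ratio of highest to lowest pup, and the litter means of 8.21 and 1.33 CPM differed 6.15-fold. The males of saline pump litter 1 had 3.37 and 3.90 CPM and its females 5.63 and 5.08 CPM. The males of saline pump litter 3 had 3.12 and 2.64 CPM, and its females, 4.01 and 1.66 CPM, held both the highest and the lowest value of that litter. The males of spontaneous labor litter 2 had 2.20 and 2.26 CPM, against 4.65 and 4.46 CPM in its females. The order was turned in spontaneous labor litter 3, with 4.87 and 3.75 CPM in the males and 3.80 and 2.22 CPM in the females. Of these 4 litters, the spontaneous labor means of 3.39 and 3.66 CPM fell between the saline pump means of 2.86 and 4.50 CPM.

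Npas4 varied more among littermates and less between litters. Saline pump litter 2 had 3.17 and 5.59 CPM in the males and 5.43 and 5.65 CPM in the females, so that 1 male stood apart from its 3 littermates. Spontaneous labor litter 1 had 2.34 and 1.28 CPM in the males and 1.25 and 2.21 CPM in the females. The litter means of 4.96 and 1.77 CPM differed 2.80-fold, and here the lowest pup of the high litter was less than 1 CPM above the highest pup of the low litter. Npas4 in saline pump litter 1 was at 1.77 and 2.78 CPM in the males and at 4.04 and 3.78 CPM in the females. Npas4 in saline pump litter 3 was at 2.14 and 2.19 CPM in the males and at 3.47 and 1.80 CPM in the females. Both litters held pups on either side of the 2.35 CPM that the spontaneous labor pups averaged. In spontaneous labor litter 2 the males were at 1.79 and 1.47 CPM and the females at 3.58 and 3.97 CPM, and in spontaneous labor litter 3 the males were at 4.20 and 2.57 CPM and the females at 1.80 and 1.75 CPM. For each of the 3 genes all 4 pups of saline pump litter 2 were above all 4 pups of spontaneous labor litter 1, as they were in 12.8% of the tested genes.

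**Figure D1:**
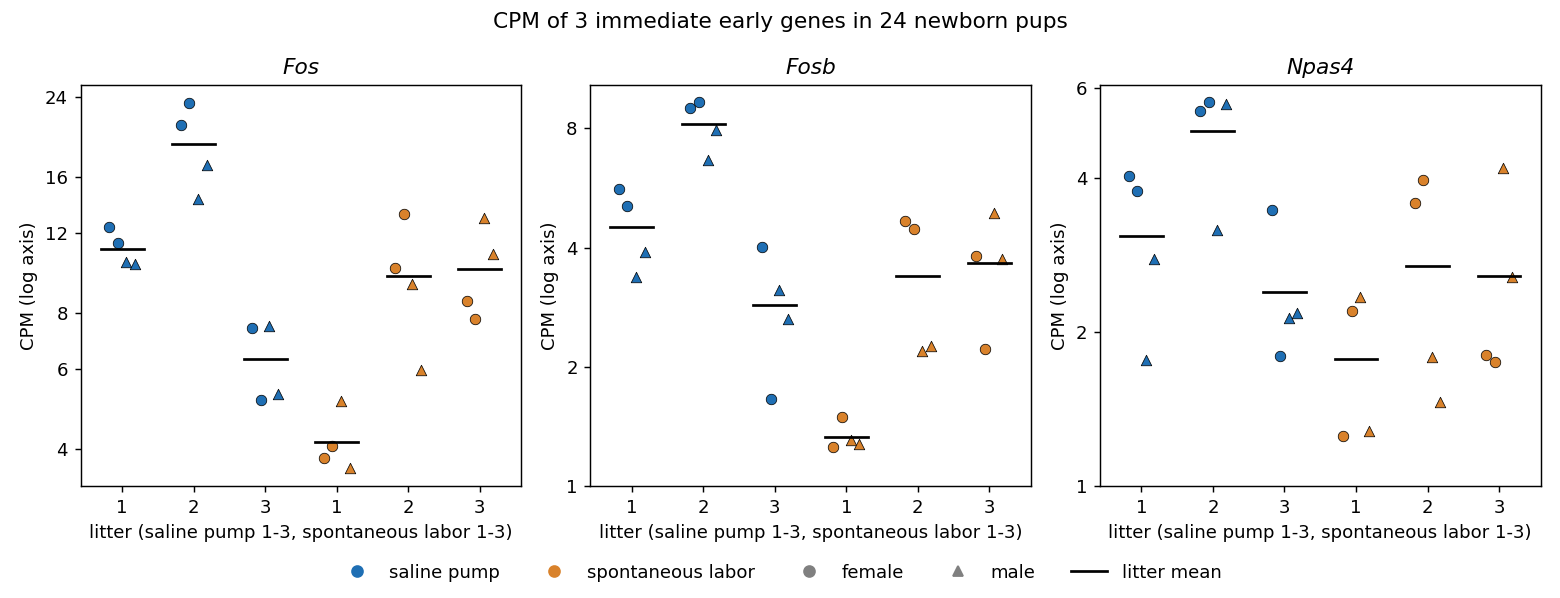
CPM of Fos, Fosb and Npas4 (vertical axis, log scale) in each of the 24 pups by litter (horizontal axis), with circles for females, triangles for males, blue for saline pump, orange for spontaneous labor and a line at the litter mean. Saline pump litter 2 is the highest and spontaneous labor litter 1 the lowest by mean in every panel, and the litters of the 2 conditions interleave between them.

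As shares of the sum of squares of log2 CPM, the litters of a condition (4 degrees of freedom) took 70.6% for Fos, 55.7% for Fosb and 31.5% for Npas4, against 32.6% for the median gene. The share for Fos was larger than that of 95.7% of the tested genes, that of Fosb larger than 83.6% and that of Npas4 larger than 47.8%. The condition (1 degree of freedom) took 16.1%, 26.9% and 18.7% (median gene 3.21%), and per degree of freedom the litters took 17.6%, 13.9% and 7.87%. The pups of one sex within a litter took 5.69%, 7.29% and 19.5% (median gene 38.3%). Npas4 had more of its variation inside litters than Fos and Fosb, as the median gene also did. The interaction of litter and sex took 25.7% for Npas4, against 7.11% for Fos and 8.51% for Fosb (median gene 13.6%). Without saline pump litter 3, the share of litters within a condition was 45.3% for Fos, 38.7% for Fosb and 19.2% for Npas4, and without saline pump litter 2 it was 17.8% for Npas4.

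Littermates differed most for Npas4 and least for Fos. The SD of log2 CPM within litters was 0.31 for Fos, 0.41 for Fosb and 0.53 for Npas4 (18 residual degrees of freedom), where counting error alone gave 0.13, 0.22 and 0.24. The highest pup of a litter had 1.21 to 2.21 times the Fos CPM of the lowest pup (median 1.54), 1.19 to 2.41 times the Fosb CPM (median 1.89) and 1.78 to 2.71 times the Npas4 CPM (median 2.11). With counting error taken out by edgeR, the variation between littermates was 17.9% for Fos, 22.5% for Fosb and 29.5% for Npas4. This is a biological coefficient of variation in a fit of litter alone, so that it still holds differences between the sexes. The median gene was at 7.64%, and 92.6%, 96.6% and 98.7% of the genes were below Fos, Fosb and Npas4.

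Between conditions, the 3 genes averaged lower in the spontaneous labor pups, with wide overlap. Fos was at 12.1 ± 5.84 CPM in the saline pump pups and 7.92 ± 3.43 CPM in the spontaneous labor pups (SD, n = 12 pups each). Fosb was at 5.19 ± 2.53 against 2.80 ± 1.41 CPM, and Npas4 at 3.48 ± 1.45 against 2.35 ± 1.03 CPM. The ranges of the litter means overlapped for all 3 genes. As means of 3 litters, the differences (spontaneous labor minus saline pump) were -0.59, -0.89 and -0.56 in log2 CPM for Fos, Fosb and Npas4, beside SDs among the litter means of 0.80, 0.80 and 0.55 in the saline pump group and of 0.71, 0.78 and 0.32 in the spontaneous labor group. Leaving the highest litter out of these means took the differences to -0.20, -0.48 and -0.26.

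The fitted log2 fold change of the 24 pups depended on what else was in the fit. With surrogate variables, which are estimates of unrecorded sources of variation and part of the study's design, it was -0.23 (SE 0.134) for Fos, -0.42 (SE 0.153) for Fosb and -0.24 (SE 0.173) for Npas4, where sva gave 6 of them. Without surrogate variables it was -0.61 (SE 0.247), -0.88 (SE 0.270) and -0.56 (SE 0.229). The surrogate variables took up 83.3%, 83.5% and 67.4% of the variation of Fos, Fosb and Npas4 within conditions (median gene 60.6%). With the counts of each litter summed, so that 3 litters stood against 3, the fold changes were -0.60 (SE 0.386), -0.88 (SE 0.406) and -0.55 (SE 0.263), with wider errors than over pups. The females alone gave -0.76, -0.95 and -0.73, and the males alone -0.44, -0.82 and -0.37. These fits by sex, like that of the litter sums, had no surrogate variables. They compare with the -0.61, -0.88 and -0.56 of all pups without surrogate variables. The 3 genes are in the study's list for its contrast of conditions in females. The larger values in females are therefore not independent of the choice, and a difference between the sexes in this response was not tested. Without saline pump litter 2 and with surrogate variables estimated again on the remaining 20 pups, which gave 5, the fold changes were 0.07, -0.10 and -0.02, while without spontaneous labor litter 3 (also 5) they were -0.59, -0.90 and -0.49. In the fit without saline pump litter 2, all 3 fold changes lay within 1 standard error of 0. Both the litters and the surrogate variables differ between these fits, and the plain litter means without that litter, given above, kept their sign.

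**Figure D2:**
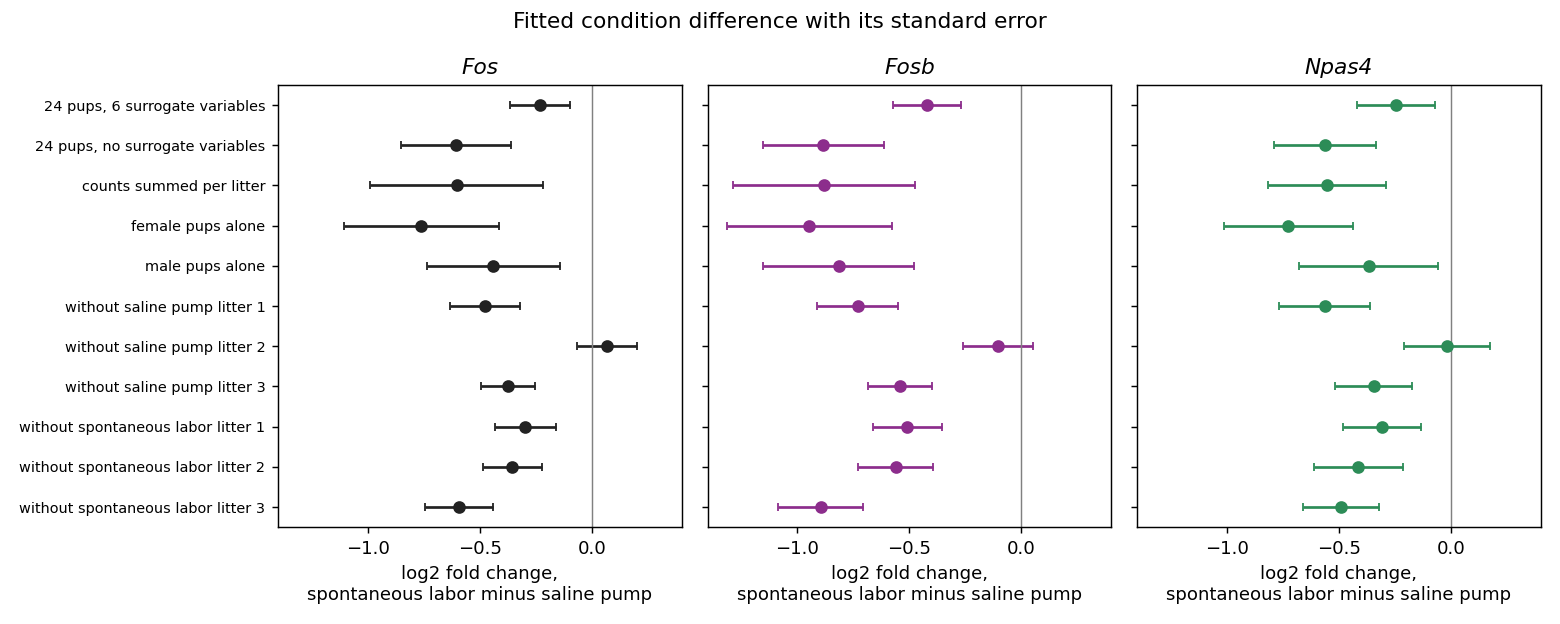
Log2 fold change of spontaneous labor against saline pump (horizontal axis, points with bars of 1 standard error) for Fos, Fosb and Npas4 under 11 settings, the last 6 with surrogate variables and 1 litter left out. The points without saline pump litter 2 lie at 0.07, -0.10 and -0.02, beside a line at 0. Litter sums and each sex alone were fitted without surrogate variables.

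The other genes of the response could be followed only in small part. Of 33 other rapid immediate early genes, 4 had an identifier, and none of the AP-1 partners, late activity-regulated genes, hypoxia or glucocorticoid response genes had one. All 11 list genes with an identifier come from the study's own selection on these samples, so their direction is not independent evidence. In edgeR's quasi-likelihood fit, with p-values adjusted over all genes by Benjamini-Hochberg, 0 of the 11 passed between conditions, against 0.00697% of the tested genes, which is 1 gene. At an unadjusted p of at most 0.05 there were 7 of the 11, against 8.38% of all tested genes, in a list that had been selected on p-values of these samples, and with counts summed per litter there were 2 of the 11. None of the 11 passed with limma, and none of the 9 to which DESeq2 gave an adjusted p. The median log2 fold change of the 11 was -0.15, against 0.00 for all tested genes. Sik1, which encodes a salt-inducible kinase, was at 43.9 ± 3.92 CPM in the saline pump pups and 38.4 ± 5.55 CPM in the spontaneous labor pups (SD, n = 12 each), with a log2 fold change of -0.15 (SE 0.0468, adjusted p = 0.318 by edgeR). Gadd45g, a stress-inducible growth arrest gene, was at 14.4 ± 2.24 and 11.9 ± 2.04 CPM (-0.15, SE 0.0759, adjusted p = 0.630 by edgeR). Dusp5, a nuclear phosphatase of ERK, was at 4.21 ± 0.948 and 3.38 ± 0.820 CPM (-0.20, SE 0.106, adjusted p = 0.630 by edgeR). Ier3 was at 6.43 ± 1.20 and 5.97 ± 1.053 CPM (-0.28, SE 0.0990, adjusted p = 0.391 by edgeR). With counts summed per litter, 0 of the 11 list genes and 0 of all genes passed (240 genes at an unadjusted p of at most 0.05).

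Markers of other cell types were in hand for 5 of 49 symbols, again from the same selection. The red cell gene Hba-a3, an alpha globin with near-identical copies that makes its counts uncertain, was at 8.07 to 25.2 CPM in the saline pump pups and 5.81 to 15.1 CPM in the spontaneous labor pups, Ahsp at 1.57 to 3.61 and 0.854 to 2.99 CPM, and Alas2 at 8.28 to 16.95 and 8.75 to 13.8 CPM. By edgeR with surrogate variables their log2 fold changes were -0.61, -0.51 and -0.26 (adjusted p = 0.160, 0.372 and 0.452), and with counts summed per litter the adjusted p was 1.00 for each. Without saline pump litter 2 all 3 passed (adjusted p = 0.000963, 0.0409 and 0.0448 by edgeR), as did 0.455% of the tested genes, whereas none of the 3 passed without saline pump litter 1, saline pump litter 3 or spontaneous labor litter 1. These fits took pups singly without a litter term, though littermates share a dam, so their p-values do not measure the spread between dams. No fit on litter sums was run with a litter left out. Within litters these 3 genes followed Fos at r = -0.08, 0.00 and 0.21, and over the 6 litter means at r = 0.57, 0.50 and 0.31. Cldn5, an endothelial tight junction gene, had r = 0.00 within litters and 0.79 over litter means, and the astrocyte water channel Aqp4 had r = -0.06 and -0.29. The part of blood or vessel content in the litter differences of the 3 genes was not tested.

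The difference between females and males was not itself a ground for choosing the genes. The values of single pups were known, however, and the study's list that holds the 3 genes is of a contrast in females. Sex was tested, with each litter as a block, in edgeR's quasi-likelihood fit of 14348 genes (Benjamini-Hochberg adjusted). No member of the trio passed (0 of 3, against 0.0488% of the tested genes, 7 genes). The log2 fold change of females against males was 0.14 for Fos (SE 0.114, p = 0.250, adjusted p = 0.727 by edgeR), 0.27 for Fosb (SE 0.146, p = 0.0747, adjusted p = 0.563 by edgeR) and 0.30 for Npas4 (SE 0.190, p = 0.126, adjusted p = 0.626 by edgeR). The female mean was higher in 3 of 6 litters for Fos and in 4 of 6 for Fosb and Npas4. Without the litter block it was also 0 of 3 (0.0348% of the tested genes). DESeq2 gave an adjusted p of 0.791 for Fos and 0.594 for Fosb and none for Npas4. These p-values do not show that the sexes were alike.

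The sign of the difference between the sexes was not the same in all litters. For Fos, the female minus male difference in log2 CPM was 0.22, 0.49 and -0.02 in saline pump litters 1, 2 and 3 and -0.14, 0.62 and -0.54 in spontaneous labor litters 1, 2 and 3. For Fosb it was 0.57, 0.33 and -0.14, then 0.06, 1.01 and -0.56. For Npas4 it was 0.82, 0.39 and 0.22, then -0.07, 1.19 and -0.88. The 3 genes kept nearly the same order of litters, with spontaneous labor litter 2 at the top and spontaneous labor litter 3 at the bottom. In spontaneous labor litter 2 both females were above both males for all 3 genes, against 17.1% of the tested genes, and in saline pump litter 1 likewise for all 3 (15.4%). In saline pump litter 2 this held for Fos and Fosb (22.6%). In spontaneous labor litter 3 both males were above both females for Fos and Npas4 (15.3%).

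**Figure D3:**
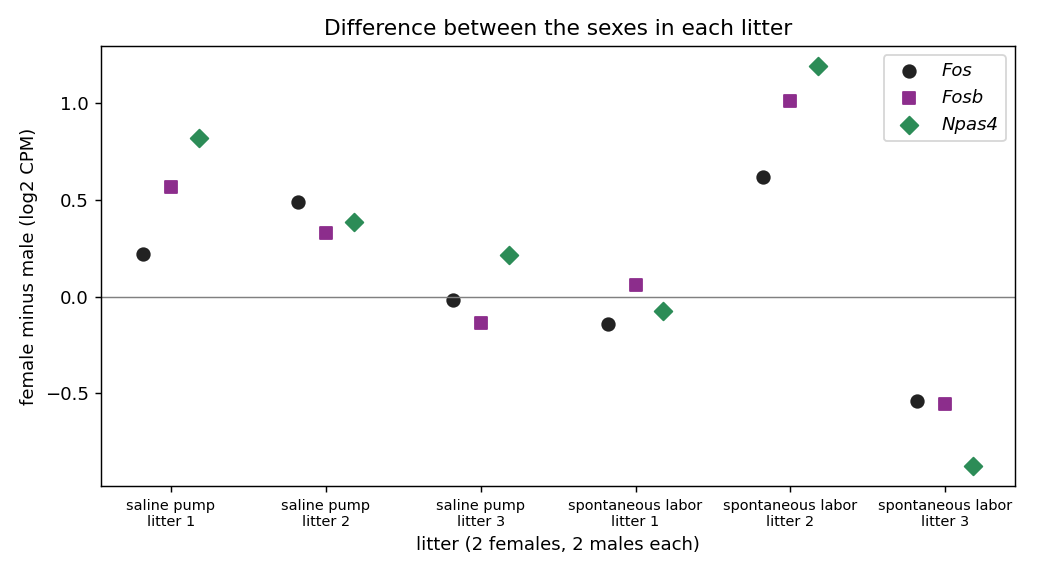
Difference of the mean log2 CPM of 2 females and 2 males (vertical axis) in each of the 6 litters (horizontal axis) for Fos (circles), Fosb (squares) and Npas4 (diamonds). The 3 genes move together, from 0.62, 1.01 and 1.19 in spontaneous labor litter 2 to -0.54, -0.56 and -0.88 in spontaneous labor litter 3.

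The 3 genes followed each other both between litters and among littermates. Over 6 litter means, r was 0.98 for Fos and Fosb, 0.95 for Fos and Npas4 and 0.97 for Fosb and Npas4. Over the 24 pups pooled, Pearson's r was 0.95, 0.84 and 0.87 and Spearman's rho 0.93, 0.81 and 0.87, values that hold the litter differences. After subtraction of the litter means, r was 0.75 for Fos and Fosb (rho 0.77), 0.81 for Fos and Npas4 (rho 0.77) and 0.83 for Fosb and Npas4 (rho 0.85). All of these points share library and depth between the genes of a pair. Without the 2 pups farthest from the median of the first gene, the values within litters were 0.71, 0.76 and 0.86. On leaving out single litters they ranged from 0.73 to 0.79, from 0.77 to 0.84 and from 0.77 to 0.87.

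Pup by pup, on log2 CPM after TMM, Fos and Fosb lay on the same side of the litter mean in 21 of 24 pups, Fos and Npas4 in 21 and Fosb and Npas4 in 20. By CPM, the same pup was the highest for all 3 genes in 3 of 6 litters, namely female 1 in saline pump litter 1, female 2 in saline pump litter 2 and male 1 in spontaneous labor litter 3. The same pup was the lowest for all 3 in 3 of 6, namely male 1 in saline pump litter 2 and female 2 in saline pump litter 3 and in spontaneous labor litter 3. On log2 CPM after TMM both numbers were 4 of 6, since near-ties of Fos in saline pump litters 1 and 3 changed order. As deviations from the mean of the litter and sex, r was 0.76, 0.74 and 0.76 in the 12 females and 0.46, 0.62 and 0.70 in the 12 males, for Fos and Fosb, Fos and Npas4, and Fosb and Npas4. Each litter holds 2 pups of a sex, whose deviations mirror each other, so that each of these r rests on 6 differences.

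**Figure D4:**
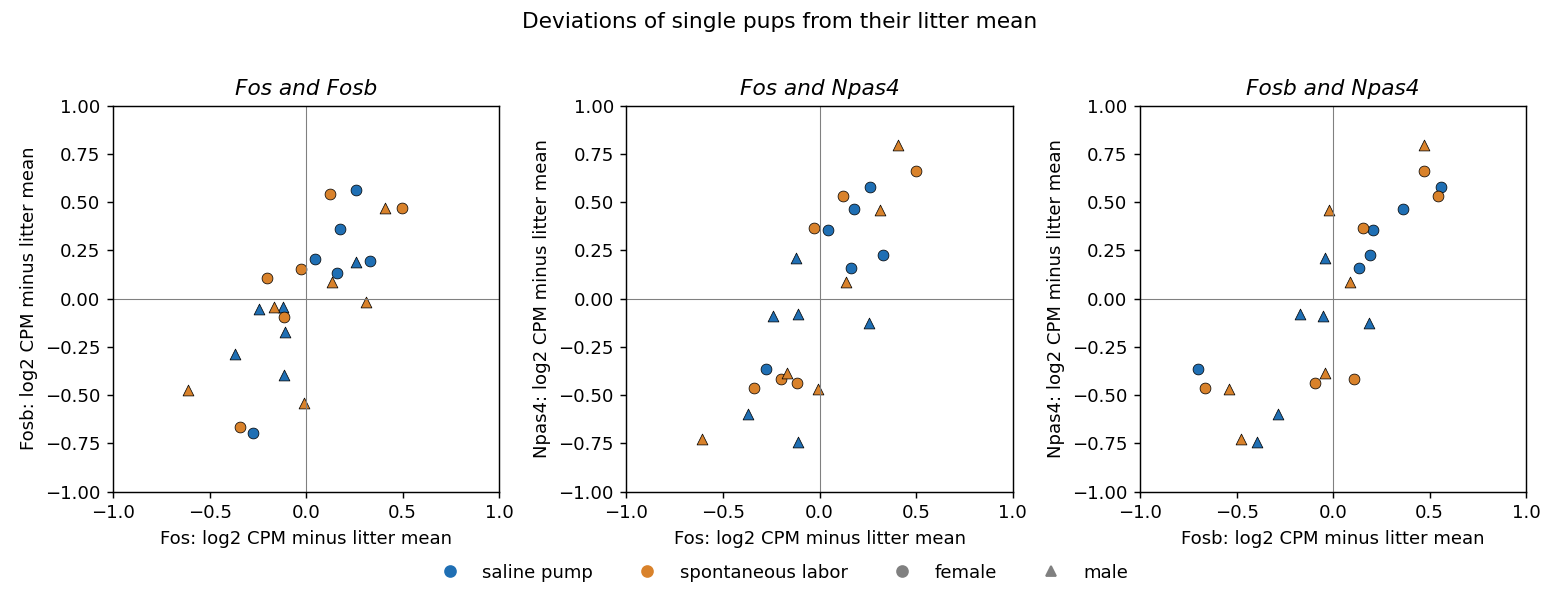
Deviation of each pup's log2 CPM from its litter mean for the 3 pairs of genes (24 pups, circles females, triangles males, blue saline pump, orange spontaneous labor). Points run from the lower left to the upper right in each panel, with r of 0.75, 0.81 and 0.83.

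The proportions between the genes were not fixed. Fos was 4.66 to 5.18 times Fosb in RPKM as litter means in the saline pump group and 5.75 to 6.39 times in the spontaneous labor group. Those litter means did not overlap, but single pups did, with 3.78 to 6.30 in saline pump litter 3 and 4.42 to 8.61 in spontaneous labor litter 2. How many other pairs of genes are separated in this way was not computed. The ratio also comes from values the genes were chosen on, so it is a description only. The ratio of Fos to Npas4 was lowest in spontaneous labor litter 1 (3.83) and saline pump litter 3 (4.22), the litters with least Fos, and lay between 5.95 and 6.35 in the other 4. Fosb and Npas4 were near equal in RPKM, with litter ratios from 0.612 in spontaneous labor litter 1 to 1.29 in saline pump litter 2. The slope of log2 CPM of Npas4 on that of Fos was 0.64 over litter means and 1.38 among littermates, so that Npas4 moved less than Fos between litters and more than Fos between littermates.

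Among all genes, few followed a littermate's Fos as closely as the other 2 did. The genes were picked with this correlation known, so their ranks describe the choice and are not a separate result. Ranked by r within litters, Npas4 was the 4th and Fosb the 14th of 14347 genes for Fos. For Fosb, Npas4 was the 9th and Fos the 48th, and for Npas4, Fosb was the 3rd and Fos the 7th. Against the mean of the scaled deviations of the 3 genes, 14 of 14345 other genes had r above 0.8 and 3 had r below -0.8, with a median of -0.01.

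The 8 most like genes had r from 0.83 to 0.94 over 24 pups, and none of them could be paired with a name. The first was ENSRNOG00000002579 on chromosome 14 (17888361 to 17918277 of Rnor_5.0), with r = 0.94 and a mean of 11.99 RPKM, and the next was ENSRNOG00000011642 on chromosome 9 (24167386 to 24227618), with r = 0.87. Unlike Fosb and Npas4, these did not follow Fos between litters, with r of -0.19 and -0.26 over the 6 litter means. Over the 8 genes that value ranged from -0.36 to 0.83, each below the 0.98 of Fosb and the 0.95 of Npas4. Fosb and Npas4 were picked with that value known and the 8 genes on values within litters alone, so this contrast follows in part from the choice. The gene ranked 5 followed Fos in both, at r = 0.83 over litter means and 0.69 within litters. Named genes farther down, which were looked up after the ranking was seen, were Prkca, a protein kinase C (37th, r = 0.76), Plekhm3 (72nd, r = 0.72) and Rasgef1b, a guanine nucleotide exchange factor (117th, r = 0.68). Over litter means their r with Fos was -0.50, 0.43 and 0.81.

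Of the 4 immediate early genes of the lists, which the study had selected on these samples, 3 followed Fos between litters. Among littermates, Gadd45g and Dusp5 followed Fos less closely and Sik1 did not follow it. Gadd45g, Dusp5 and Sik1 had r = 0.96, 0.94 and 0.91 with Fos over the 6 litter means, but r = 0.32, 0.39 and -0.18 among littermates. Ier3 followed Fos in neither, with r = 0.16 and 0.05. The r over litter means rest on 6 points that hold the condition difference, and the share of all genes with values as high was not computed. The gene at the bottom of the ranking within litters (r = -0.73 with Fos) also had r = 0.84 over litter means, and the one above it -0.12. The heat shock gene Chordc1 ran against Fos over litter means (r = -0.84) with r = -0.10 among littermates, and Bag3, a co-chaperone of the same response, had r = -0.05 and 0.19.

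**Figure D5:**
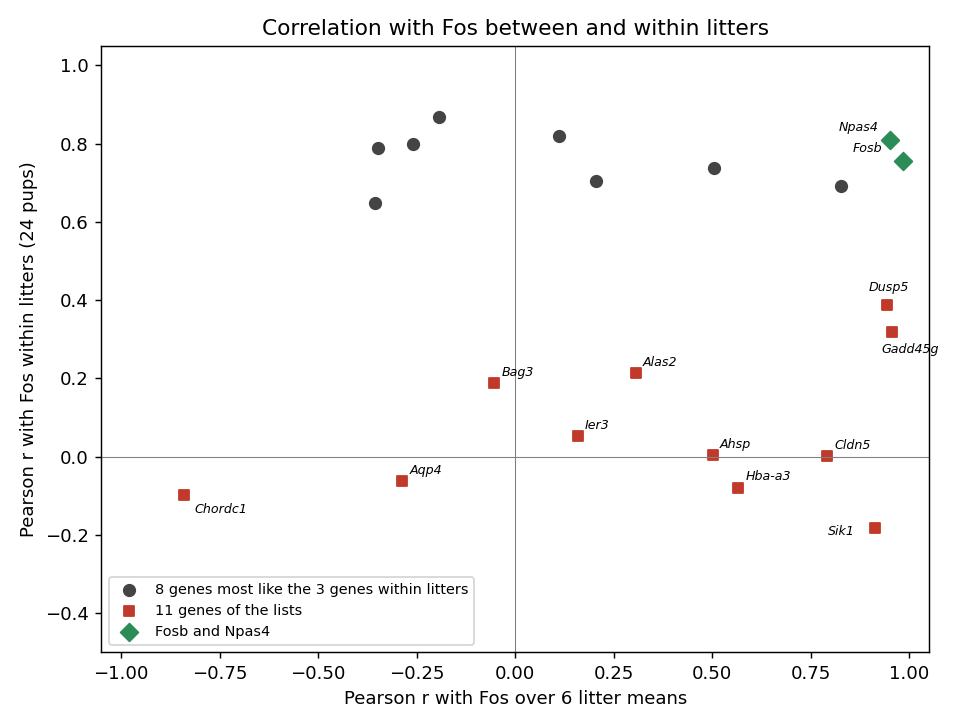
Pearson's r of each gene with Fos over 6 litter means (horizontal axis) and within litters over 24 pups (vertical axis) for Fosb and Npas4 (diamonds), the 8 genes most like the trio within litters (circles) and 11 genes of the lists (squares). Fosb and Npas4 are high on both axes, the circles spread from -0.36 to 0.83 on the horizontal axis, and Gadd45g, Dusp5 and Sik1 are high on it alone.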

How the data were processed

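The authors aligned reads from oligo-dT primed libraries (RIN above 9.5) to Rnor_5.0 with STAR and counted them per Ensembl gene with featureCounts, and strandedness is not given in the sources used here. They deposited counts without normalization, CPM (counts over the library total) and RPKM (CPM per kilobase of exon). The labels gave condition, sex and pup number. The litter was read from the identifier recorded with the deposited counts of each pup, and no label states it. From the counts, genes above 1 CPM in at least 4 pups were kept, TMM factors and log2 CPM with a prior count of 0.5 were computed, and edgeR 4.0.16 quasi-likelihood tests (limma 3.58.1, sva 3.50.0, DESeq2 1.42.0, R 4.3.3) were fitted across 14348 genes with Benjamini-Hochberg adjustment at 0.05. Condition was fitted over single pups with 6 surrogate variables and no litter term. Sex was fitted with litter as a block, since littermates share a dam. For condition, litter sums and each sex alone were fitted without surrogate variables. Deposited CPM and RPKM entered no test. Standard errors come from the test statistic. The fits were tested on simulated counts with pups drawn independently, without litter effects or unrecorded sources of variation. That test cannot show the error rate of the condition fit where litters differ. The 3 genes and the lists were chosen with earlier results of these data known. The text names the 3 genes, the 8 genes most like them within litters (at most 2 identifiers), list genes, and 3 genes picked by name after ranking. Alternatives were no surrogate variables, litter sums, RLE factors, no filter, DESeq2, limma, another prior count, each sex alone, and each litter left out. Python 3.11.15 with matplotlib 3.10.9 drew the plots.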

Additional observations from a re-analysis of the deposited data

Results flagged for a closer look

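Npas4 in male 1 of saline pump litter 2 stood apart from its 3 littermates, at 1.70 in log2 CPM (3.17 CPM) against 2.45 to 2.52. The gap took 0.917 of the range of the litter. Of 30 groups of pups examined, this was the 1 that passed Dixon's limit, where chance gives about 1 in 20, or 1.5 groups. The same pup was also the lowest of its litter for Fos and Fosb.

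The difference between the sexes went opposite ways in some litters, with every female above every male in one and below in the other. For Fos, the female minus male difference in log2 CPM was 0.22 in saline pump litter 1, 0.49 in saline pump litter 2 and 0.62 in spontaneous labor litter 2, against -0.54 in spontaneous labor litter 3. For Npas4 it was 0.82 in saline pump litter 1 and 1.19 in spontaneous labor litter 2, against -0.88 in spontaneous labor litter 3. These pairs of litters were not tested singly. An interaction over all 6 litters was chosen after these values were seen and run on them. By edgeR it gave p = 0.0118 for Fos, 0.0289 for Fosb and 0.0125 for Npas4, with an adjusted p of 0.996 for each. Since the values prompted the test and the 3 genes follow each other, these p-values are a description and not evidence of an interaction. The differences between litters did not pass, which does not show that the litters were alike.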

How the results depend on the processing

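The number of genes past the threshold between conditions, 1 of 14348 by edgeR with surrogate variables, was 16 with DESeq2, 11 with limma's voomWithQualityWeights, 7 without a filter on low counts, and 0 without surrogate variables (1497 at an unadjusted p of at most 0.05), with counts summed per litter (240), in females alone (779) and in males alone (680). Leaving out 1 litter gave 0 to 572 genes, with 65 without saline pump litter 2, 26 without saline pump litter 3, 6 without spontaneous labor litter 1, 143 without spontaneous labor litter 2 and 572 without spontaneous labor litter 3. The list genes past it numbered 0 to 3, with 3 without saline pump litter 2 (Hba-a3, Ahsp and Alas2), 2 without spontaneous labor litter 2 (Hba-a3 and Alas2) and 2 without spontaneous labor litter 3 (Ahsp and Sik1). The cause was not tested. Litter sums and each sex alone were fitted without surrogate variables. All of these fits but the litter sums took pups singly without a litter term, though littermates share a dam.

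The condition fold changes with 1 litter left out ranged from -0.59 to 0.07 for Fos, -0.90 to -0.10 for Fosb and -0.56 to -0.02 for Npas4. The share of litters within a condition ranged from 45.3 to 77.1% for Fos, 38.7 to 59.2% for Fosb and 17.8 to 34.1% for Npas4. The correlations within litters in males alone were 0.46, 0.62 and 0.70 for Fos and Fosb, Fos and Npas4, and Fosb and Npas4.

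No paired analysis was possible for the condition because the pups of the 2 conditions come from different dams. For sex, the litter is the replicate block. With no replicate block, the female minus male fold changes were 0.16 for Fos, 0.27 for Fosb and 0.29 for Npas4, with edgeR adjusted p of 0.972, 0.959 and 0.959, and 5 genes passed in place of 7. DESeq2 gave 16 genes, no filter 15, and leaving out 1 litter 5 to 14 (14 without saline pump litter 3). The fold changes for sex stayed above 0 in all these settings and passed the threshold in none (DESeq2 gave no adjusted p for Npas4), from 0.04 to 0.28 for Fos, 0.12 to 0.44 for Fosb and 0.12 to 0.54 for Npas4 with 1 litter left out. No list gene passed for sex in any setting. Depth limits the pup values of Fosb and Npas4 most, which both went down to 18 reads in a pup.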
